A study of Mus musculus with 76 samples.

Results

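Distal CTCF sites within H3K27ac were taken from the wild type mouse diencephalon late in gestation (E17.5). They were CTCF regions called in all 3 replicates, over 5 kb from every protein-coding gene start, that overlapped an H3K27ac peak in all 3 replicates. Of 85858 merged CTCF regions, 51511 were called in all 3 lists and 39046 of these were distal. H3K27ac overlapped 5472 of the distal regions in all 3 lists, 2668 in 1 or 2 lists and 30906 in none. The remaining 12465 regions called in all 3 lists lay within 5 kb of a gene start. The 5472 sites were therefore chosen by their wild type E17.5 CTCF and H3K27ac peaks, and these values are given as a description without a test.

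CTCF is a zinc finger protein that binds a long DNA motif and, together with the cohesin ring, halts loop extrusion, so that it anchors chromatin loops and insulates neighbouring domains. H3K27ac, acetylation of lysine 27 on histone H3, marks active enhancers and promoters, and H3K4me3, trimethylation of lysine 4, marks promoters and the CpG-rich elements that resemble them. Most CTCF sites lie away from promoters in chromatin without either mark, while a minority sit in or beside acetylated elements, where CTCF is known to bring some enhancers close to their promoters.

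All mice were C57BL/6J. The embryos came either from wild type crosses or from a line homozygous for the human hs754 enhancer sequence in place of its mouse counterpart on chromosome 13 (hs754-humanized). Whole diencephalon was taken at E11.5 or E17.5. A replicate was a single litter, with 6 embryos pooled at the earlier stage and 3 at the later. Each genotype had 2 early and 3 late ChIP-seq replicates, with CTCF profiled at E17.5 alone, and 4 RNA-seq replicates per stage. Humanized ChIP-seq reads were aligned to a genome carrying the human sequence, so sites on chromosome 13 were left out of peak comparisons between the genotypes. Every peak value below is a fold enrichment over local background, that of the highest peak overlapping the site in one replicate's list, and its read depth is unknown. The H3K27ac antibody is stated by the study's methods to bind acetylated lysine 5 of histone H2B as well.

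A few sequences show what lay under the summits of these sites. The letters searched were CCNNNAGNNGGC, the core of the CTCF motif, on both strands within 100 bp of the CTCF summit. The match is in capitals, with 30 bases on either side, 5′ to 3′ on the strand of the match, from GRCm39 (mm39). The first pair belongs to sites among those with the highest CTCF enrichment and no H3K4me3, and the second pair to sites among those with the highest H3K27ac.
Gm21969 site, chr4:139339111-139339182, minus strand: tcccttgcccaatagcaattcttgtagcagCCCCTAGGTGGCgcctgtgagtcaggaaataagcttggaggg
Tmem242 site, chr17:5479868-5479939, plus strand: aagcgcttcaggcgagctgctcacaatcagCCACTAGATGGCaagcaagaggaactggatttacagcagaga
Zfhx3 site, chr8:109430984-109431055, minus strand: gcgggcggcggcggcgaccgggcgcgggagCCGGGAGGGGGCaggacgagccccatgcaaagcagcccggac
Chd2 site, chr7:73268233-73268304, minus strand: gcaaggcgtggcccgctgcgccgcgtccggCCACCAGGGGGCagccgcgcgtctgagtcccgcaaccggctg
The CTCF summits of the Gm21969 and Tmem242 sites lie in introns outside CpG islands, whereas those of the Zfhx3 and Chd2 sites lie in CpG islands. A match of these letters is a description of the sequence and not a measured binding site.

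CTCF enrichment at the sites had a median of 12.8-fold (mean of 3 lists, quartiles 6.41 and 31.3, range 2.94 to 82.7). Distal CTCF sites without H3K27ac had a median of 10.6 with quartiles of 6.40 and 22.1. The lower quartiles were nearly the same, and the upper quartile was higher within H3K27ac. The regions were also longer, with a median of 725 bp against 504 bp. H3K27ac at the sites had a median of 8.62-fold (quartiles 5.35 and 17.8, range 2.59 to 83.0).

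The humanized lists gave CTCF values that had no part in choosing the sites. Outside chromosome 13, 93.1%, 91.3% and 92.4% of the 5233 sites had a CTCF peak in humanized replicates 1, 2 and 3, against 92.9%, 89.8% and 92.0% of the sites without H3K27ac. The median enrichment in those lists was 13.3, 14.0 and 13.2 within H3K27ac, against 10.9, 10.9 and 10.3 without it. The difference between the log2 medians was 0.29, 0.36 and 0.36, a mean of 0.34, and had the same direction in 3 of 3 lists. An exact sign-flip permutation test over the 3 lists gave p = 0.25, two-sided, the smallest that 3 lists allow. The direction depended on the length of the sites. Among sites of 400 to 800 bp the medians in the humanized lists were 8.27, 8.55 and 8.0 within H3K27ac against 10.7, 10.5 and 10.2 without it, a mean difference of -0.34.

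Where the CTCF summit fell relative to the H3K27ac peak separated the sites by both signals. In each list, only the highest H3K27ac peak overlapping the site was considered, so a summit in another, lower peak counted as outside. The summit lay inside this peak in all 3 lists at 3306 sites (60.4%) and in none of the lists at 933 (17.1%). It lay inside the peak in 1 list at 567 sites (10.4%) and in 2 lists at 666 (12.2%). Sites with the summit outside in all 3 lists had a median CTCF enrichment of 30.6-fold and a median H3K27ac of 5.04-fold. Sites with the summit inside in all 3 lists had a median CTCF of 8.91-fold and a median H3K27ac of 13.2-fold. The classes in between had CTCF medians of 25.6 and 13.9. Regions with the summit outside were longer (977 bp against 624 bp), and the part of length in this order was not tested.

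The core letters followed the same order. They were present at 49.6% of sites with the summit outside in all 3 lists. The shares were 42.2%, 31.8% and 26.5% of those with the summit inside in 1, 2 and 3 lists. Of all 5472 sites, 1789 (32.7%) held the letters, 873 on the plus strand and 916 on the minus strand. The share was 45.1% at distal sites without H3K27ac and 40.9% over all sites called in 3 lists, and windows shifted by 2000 bp held the letters at 3.33% of sites within H3K27ac and 3.37% of those without. A stricter form, CCANNAGNNGGC, whose matches are all matches of the first, occurred at 22.6% of sites within H3K27ac and 38.1% of those without.

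**Figure D1:**
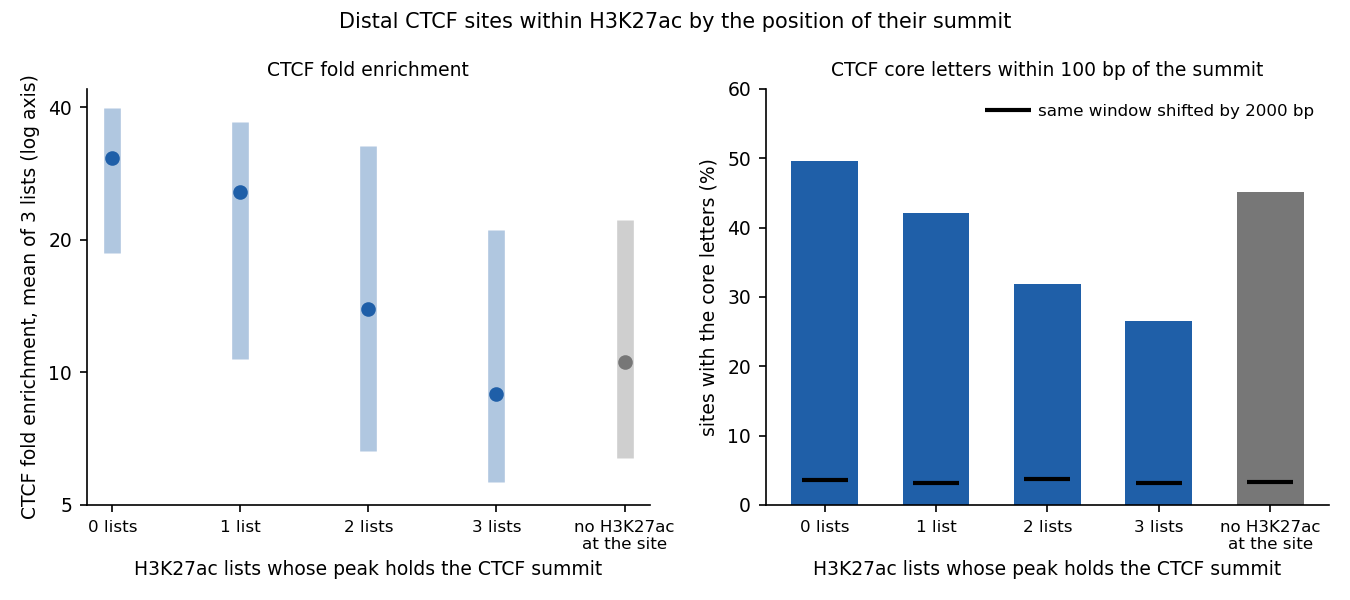
Left, CTCF fold enrichment (mean of 3 wild type E17.5 lists, log axis) of distal sites within H3K27ac, grouped by the number of H3K27ac lists whose peak holds the CTCF summit, with distal sites lacking H3K27ac in grey (points, medians; bars, quartiles). Right, percent of sites with the core letters within 100 bp of the summit, with the black line giving the same window shifted by 2000 bp. The peak considered is the highest H3K27ac peak over the site in each list. From summits outside it in all 3 lists to summits inside it in all 3, the CTCF median falls from 30.6 to 8.91. The share with letters falls from 49.6% to 26.5%.

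Within the set, the core letters went with CTCF enrichment. The share with letters was 14.3%, 19.7%, 38.2% and 58.6% from the lowest to the highest quartile of CTCF, and the same quartiles of sites without H3K27ac had 34.1%, 42.6%, 48.0% and 55.6%. The shares were closest in the highest quartile and farther apart in the 2 lower ones. Sites with the letters had a median CTCF of 29.0-fold and H3K27ac of 7.71-fold, against 9.14 and 9.15 at sites without them. When only sites with the letters were compared, the humanized lists had CTCF medians of 25.6, 25.5 and 25.4 within H3K27ac and 12.7, 12.3 and 11.9 without it, a mean difference of the log2 medians of 1.05. Length was not held here, although the direction over all sites depended on it. The sites with letters within H3K27ac had a median length of 930 bp, and the part of length in this difference was not tested.

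The sites with the highest CTCF enrichment were mostly close to genes and many lay in CpG islands. The highest was in an exon of Gdf15, which encodes a stress-induced cytokine (chr8:71081810-71083679, 7.86 kb from the gene start), with CTCF of 88.5, 78.6 and 80.9 in the 3 lists (82.7 ± 5.2, SD, n = 3). Its H3K27ac was 11.8, 7.71 and 21.7, and its H3K4me3 17.8, 14.1 and 15.1. Enrichments of different antibodies are not on a common scale and are listed side by side only. The next, in an exon of H2-DMa, a subunit of the chaperone that loads peptide on class II molecules (chr17:34353388-34354935, nearest gene start H2-DMb2), had CTCF of 74.0, 75.3 and 71.2 and H3K27ac of only 3.24, 3.98 and 6.53. No E11.5 list had H3K27ac there.

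Strong CTCF sites without H3K4me3 were the Gm21969 and Tmem242 sites whose letters are printed above. At the former, in an intron shared by Gm21969 and Iffo2 (chr4:139338853-139340129), CTCF was 86.0, 66.1 and 52.1 and H3K27ac 5.83, 6.43 and 6.02. At the latter, in an intron of Tmem242 (chr17:5479427-5480539), CTCF was 76.8, 61.5 and 64.4 and H3K27ac 5.61, 5.75 and 7.57. Both had acetylation below the median of all 5472 sites beside CTCF among the highest.

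At the acetylated end, CTCF was mostly weak. The highest H3K27ac was at a site of 346 bp in an intron of Zfhx3, which encodes a large homeodomain and zinc finger transcription factor (chr8:109430773-109431118), with H3K27ac of 78.1, 89.3 and 81.7 (83.0 ± 5.7) and H3K4me3 of 68.4, 66.3 and 71.3. CTCF there was 3.86, 4.13 and 5.11. This site lies 761 kb from the start of the Zfhx3 gene record but 1041 bp from the start of an annotated Zfhx3 transcript. The next H3K27ac peak, 80.1, 77.5 and 85.2 in the 3 lists, lay 72 to 76 kb from the start of Chd2, which encodes a chromatin remodeller, and held a pair of sites.

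The pair near Chd2 differed in almost every other measure. The first (chr7:73264061-73264584, an exon of a non-coding RNA) had a mean CTCF of 5.09-fold, no H3K4me3 and no H3K27ac at E11.5. The second (chr7:73267864-73268966, in a CpG island) had CTCF of 50.0, 47.3 and 43.3, a mean H3K4me3 of 45.7 and E11.5 H3K27ac of 46.9 and 53.9. Their equal E17.5 H3K27ac is the value of the peak they share and not a level measured at each site. In humanized replicates 1 and 2 both sites again had a common value (66.3 and 47.9). In humanized replicate 3 the first had 5.86 and the second 57.8. A pair of sites near Nr2f1, a nuclear receptor gene of forebrain patterning, shared a peak of 79.4-fold H3K27ac with mean CTCF of 5.74 and 6.31 (chr13:78323937-78324344 and chr13:78329608-78330024). Both also had H3K27me3, the mark of Polycomb repression, in all 3 lists.

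Values at the edges of the rule were as follows. Just inside the distance limit, the nearest sites lay 5.011 kb from Grik3 and 5.014 kb from Prss8, and just outside it 4.982 kb from Ccdc188 and 4.974 kb from Med15. The lowest H3K27ac inside the set was at a Megf11 site, at 2.48, 2.18 and 3.10. Excluded sites could be far more acetylated, as near Irf2bp2, where 2 lists had 54.9 and 58.6 and the other had no peak at the site.

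**Figure D2:**
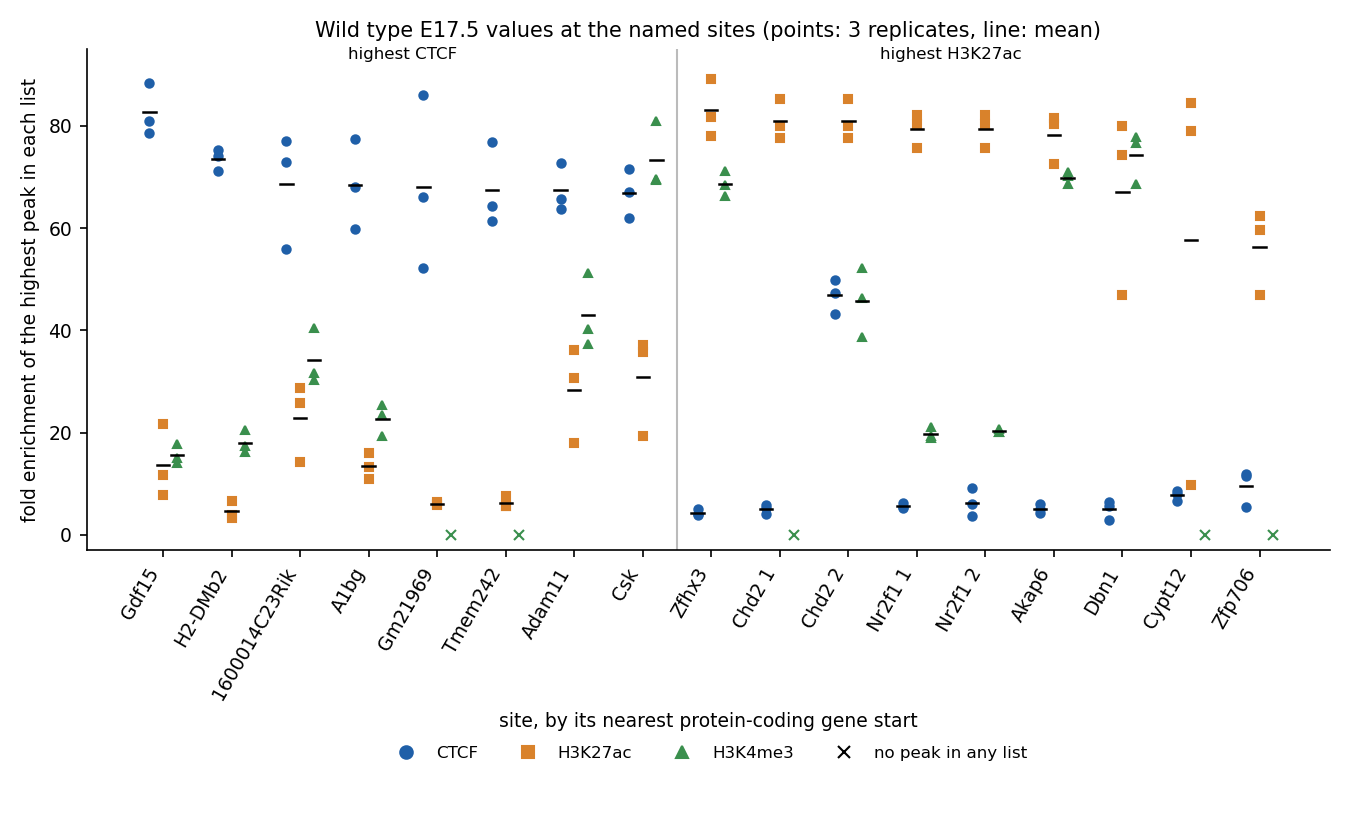
Fold enrichment of CTCF, H3K27ac and H3K4me3 at 17 sites chosen for the highest CTCF (left) or the highest H3K27ac, with or without E11.5 H3K27ac (right), in the 3 wild type E17.5 lists (points) with their mean (line); a cross marks no H3K4me3 peak. CTCF lies above 50 at every site on the left and, apart from the second Chd2 site, near or below 12 on the right.

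Across all 5472 sites, the most acetylated quartile had the lowest CTCF. From the lowest to the highest quartile of H3K27ac, the median CTCF was 18, 15.3, 11.496 and 9.65, and the core letters were present at 37.0%, 34.4%, 31.9% and 27.4%. The same quartiles had H3K4me3 in all 3 lists at 21.3%, 30.7%, 46.5% and 75.4% of sites. These are descriptions of the lists that chose the sites, apart from H3K4me3 and the letters. A site takes the value of the highest H3K27ac peak over it, wherever in that peak it lies, and the part of this in the order was not tested.

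The 5472 sites fell in 5108 merged H3K27ac regions. Of these, 4796 held a single site and 35 held 3 or more, up to 6. The median distance from the CTCF summit to the H3K27ac summit was 322 bp (quartiles 203 and 604), and the H3K27ac peak had a median length of 1387 bp. Few sites, 148 (2.7%), lay in an H3K27ac region reaching within 5 kb of a protein-coding gene start. These starts are those of gene records only, and other annotated transcript starts near the sites are counted below.

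H3K27ac at E11.5 asked whether the acetylated sites of E17.5 were already acetylated 6 days earlier. H3K27ac peaks of wild type E11.5 replicates 1 and 2 overlapped 42.7% and 39.5% of the 5472 sites. Those of the humanized replicates overlapped 43.2% and 43.1% of the 5233 sites outside chromosome 13. Both wild type lists had a peak at 1956 sites (35.7%), a single list at 591 (10.8%) and neither at 2925 (53.5%). Among distal CTCF sites without H3K27ac at E17.5, both lists had a peak at 0.563%. Sites acetylated at both stages had a median E17.5 H3K27ac of 17.1-fold and CTCF of 10.6-fold, with H3K4me3 in all 3 lists at 65.0% and a CpG island at 40.2%. Sites without E11.5 H3K27ac had 6.38-fold, 14.1-fold, 29.4% and 18.6%. E11.5 H3K27ac also followed the summit position at E17.5, from 15.2% of sites with the summit outside in all 3 lists to 47.7% of those with it inside in all 3.

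The strongest site acetylated at both stages, by E11.5 enrichment, was in Pfdn4, which encodes a prefoldin subunit (chr2:170349623-170353791, nearest gene-record start Cyp24a1). Its E11.5 H3K27ac was 61.0 and 65.1, and its E17.5 H3K27ac 58.3, 51.8 and 65.3. CTCF there was 76.8, 44.5 and 76.9 and mean H3K4me3 77.6, and no wild type E17.5 list had H3K27me3 there. Among sites acetylated at E17.5 alone, a site 96.5 kb from Akap6 (chr12:52649254-52649562, an exon of the non-coding 1700031P21Rik) had a mean H3K27ac of 78.1 and mean H3K4me3 of 69.9. A site 142 kb from Cypt12 had H3K27ac of 84.5, 79.0 and 9.80 in the 3 lists, with an SD of 41.6 around a mean of 57.8.

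H3K4me3 at E17.5 was present in all 3 wild type lists at 2379 sites (43.5%), in 1 or 2 at 362 (6.62%) and in none at 2731 (49.9%). The single lists overlapped 46.9%, 47.5% and 45.7% of the 5472 sites in wild type. In humanized samples they overlapped 46.5%, 43.8% and 45.4% of the 5233 sites outside chromosome 13. At CTCF sites within 5 kb of a gene start 62.8% had H3K4me3 in all 3 lists, and at distal sites without H3K27ac 1.83% did. Where present, the median enrichment was 24.6-fold at distal sites within H3K27ac and 54.9-fold at sites within 5 kb of a start. At E11.5, both wild type lists had H3K4me3 at 2221 sites (40.6%).

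Part of the H3K4me3 lay at annotated starts other than those of gene records. A protein-coding transcript started within 1 kb of 1033 sites (18.9%), a non-coding transcript alone within 1 kb of 1171 (21.4%), and no transcript near 3268 (59.7%). H3K4me3 in all 3 lists was found at 79.7%, 60.5% and 25.9% of these groups. The 847 sites with H3K4me3 and no annotated start had a median CTCF of 23.7 and H3K27ac of 10.1, and 40.9% were in a CpG island. The 2186 sites with neither had a median H3K27ac of 6.23, and 1533 of them had no H3K27ac at E11.5. The sites with the highest H3K4me3 overlapped the start of a transcript of Hif1a, the oxygen-regulated transcription factor (mean 79.5), Lrrfip2 (79.1), Vdac2, a mitochondrial porin (78.3), and Exosc3, an RNA exosome subunit (78.0).

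CpG islands are often unmethylated and carry H3K4me3. The CTCF summit lay in one at 1468 sites (26.8%), against 4.41% of distal CTCF sites without H3K27ac and 48.8% of sites within 5 kb of a gene start. Islands were called from GRCm39 as runs of 200 bp or more in which GC made up 50% or more of the bases and CpG reached over 0.6 of its expected frequency. H3K4me3 in all 3 lists was found at 85.0% of the sites in an island and 28.2% of the others. The median GC content around the summit was 51.7%, against 46.3% at sites without H3K27ac. H3K27me3 in all 3 lists overlapped 513 sites (9.38%), close to the 8.97% of all CTCF sites called in 3 lists. The share was 4.6% at distal sites without H3K27ac and 7.83% at those with H3K27ac in 1 or 2 lists. Within 5 kb of a gene start it was 19.9%. Of the 513, 75.6% also had H3K4me3 and 57.7% were in an island.

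To compare like with like, distal H3K27ac regions called in all 3 wild type E17.5 lists were divided by CTCF. A CTCF region called in all 3 lists overlapped 5333 of them, and no CTCF peak overlapped 23978. E11.5 H3K27ac overlapped 46.9% and 43.3% of the regions with CTCF in the wild type lists and 47.4% and 47.0% in the humanized lists. The values without CTCF were 25.5%, 22.2%, 25.4% and 25.7%. The mean difference was 21.4 percentage points, with the same direction in 4 of 4 lists (exact sign-flip permutation test over lists, two-sided, p = 0.13, the smallest that 4 lists allow). E17.5 H3K4me3 overlapped 46.0%, 46.6% and 44.5% of the regions with CTCF in wild type and 45.6%, 42.8% and 44.5% in humanized lists. Without CTCF the shares were 10.4%, 11% and 9.46%, and 10.1%, 8.57% and 9.47%. This difference of 35.2 points had the same direction in 6 of 6 lists (exact sign-flip test, p = 0.031, the smallest that 6 lists allow).

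The regions with CTCF were also longer and nearer to transcripts. Their median length was 1580 bp against 1188 bp, their median H3K27ac 7.60 against 5.05, and 41.1% against 20.4% had a transcript start within 1 kb. Among regions without an annotated start within 1 kb (3139 with CTCF and 19077 without), the difference was 13 points for E11.5 H3K27ac and 21.8 for H3K4me3. With the length also held to 1000 to 3000 bp it was 11.4 and 20.8 points. The lists measure the same regions, so these tests speak of the spread between lists only. Adjusted over the 3 comparisons of H3K4me3, E11.5 H3K27ac and CTCF enrichment, the exact permutation p-values were 0.0938 for H3K4me3, 0.188 for E11.5 H3K27ac and 0.25 for CTCF enrichment.

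**Figure D3:**
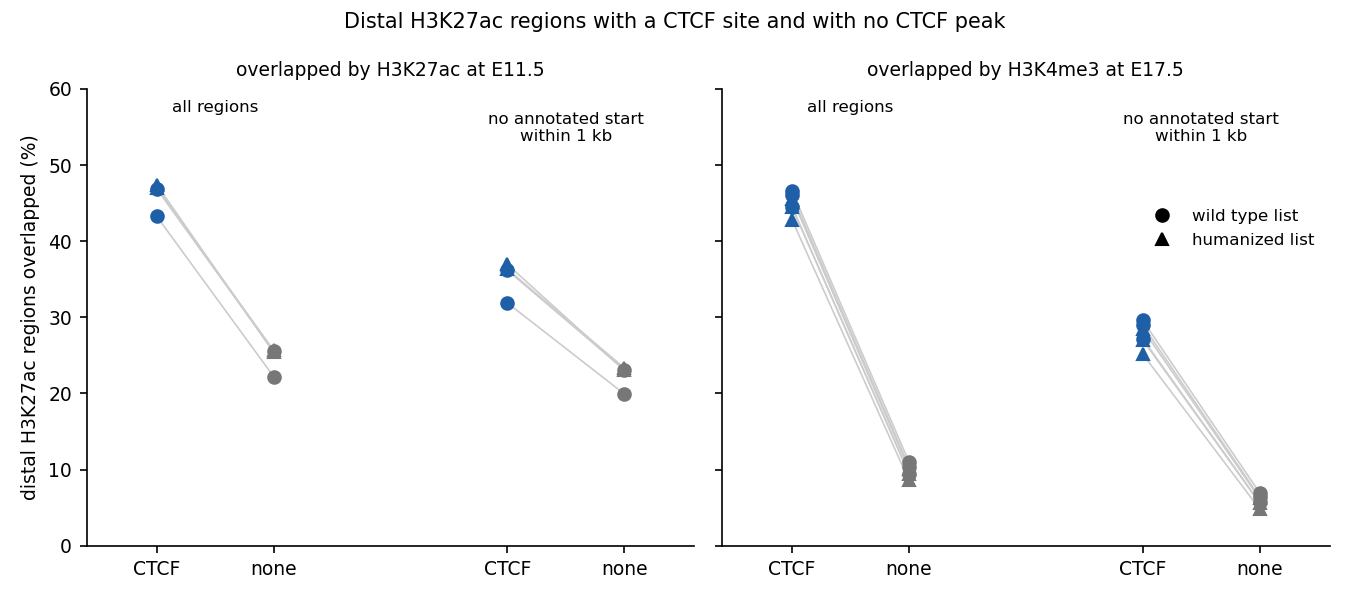
Percent of distal H3K27ac regions with a CTCF site (blue) and with no CTCF peak (grey) overlapped by H3K27ac at E11.5 (left, 4 lists) and by H3K4me3 at E17.5 (right, 6 lists), for all regions and for those with no annotated transcript start within 1 kb; circles are wild type and triangles humanized lists, joined within a list. In every list the share is higher with CTCF, by a mean of 21.4 and 35.2 points over all regions and 13 and 21.8 points without a start.

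CTCF at the sites was then compared between the genotypes in the lists themselves. Of 4465 sites outside chromosome 13 with a peak in all 6 lists, limma with Benjamini-Hochberg adjustment called 0 higher and 0 lower in humanized samples, as it did among all 41658 CTCF regions tested (0% higher and 0% lower). An unadjusted p under 0.05 was found for 209 of the 4465 sites and 1953 of all regions. The median log2 difference over the sites was 0.02. The lowest unadjusted p was at chr2:94075201-94076372, where CTCF was 22.4, 20.9 and 25.1 in wild type and 41.9, 41.2 and 37.9 in humanized lists (log2 difference 0.96, SE 0.22, adjusted p = 0.978). The groups do not overlap at this site, but the difference did not pass the test over all regions. H3K27ac of humanized E17.5 replicates 1, 2 and 3 overlapped 93.8%, 93.5% and 77.1% of the 5233 sites outside chromosome 13. The third list was the shortest of the 3.

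The sites lay in introns of protein-coding genes in 2415 cases (44.1%), in intergenic sequence in 1142 (20.9%), in introns of non-coding genes in 777 (14.2%) and in exons of protein-coding or non-coding genes in 682 (12.5%) and 456 (8.33%). The median distance to the nearest protein-coding gene start was 45.6 kb (quartiles 18.2 and 113), and 1507 sites (27.5%) were over 100 kb away. By nearest start, the sites were assigned to 3418 of 21757 genes. Of these genes, 2264 had a single site, 702 had 2 and 452 had 3 or more. The nearest gene is a position and not a measured target, and 1957 sites (35.8%) lay inside the gene they were assigned to. On the X chromosome 10.7% of distal sites were within H3K27ac, against 11.9% to 17.6% on the autosomes.

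RNA of the nearest genes was measured in 4 wild type samples per stage, with 18124370 to 24272569 reads counted on genes in each. E17.5 replicate 1 stood apart, with a mean correlation of 0.929 to the other E17.5 samples, which had 0.964 to 0.969. Its summed RPKM (counts scaled by gene length and library size) of 4 blood markers was 660 against 152 to 280, of 4 endothelial markers 61.8 against 30.01 to 32.4, of 4 microglial markers 18 against 6.20 to 7.16 and of 4 telencephalic markers 15.01 against 10.6 to 11.2, where these 4 had 1.64 to 2.18 at E11.5. All 12 diencephalic markers were above 1 RPKM in every E17.5 sample, and their sum was 217 to 294 at E17.5 and 227 to 313 at E11.5. Midbrain and hindbrain markers summed to at most 3.59 in any sample. Markers of the meninges fell in sum from 89.8 to 122 at E11.5 to 27.5 to 48.8 at E17.5, and those of the choroid plexus were 51.8 to 64.0 and 78.5 to 163. Among the latter, Ttr, the transthyretin gene, went from at most 0.511 RPKM at E11.5 to 70.1 to 154 at E17.5, while Otx2 went from 50.7 to 63.2 down to 6.02 to 7.70. The part of these cells in the results below was not tested. In such bulk tissue, fewer cells of a type and less RNA per cell cannot be told apart.

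Genes nearest to the sites had median levels of 2.53 to 2.73 RPKM at E11.5 and 3.34 to 3.55 RPKM at E17.5 (n = 3408 genes with a length). Protein-coding genes nearest to a distal CTCF site without H3K27ac, and to none of the chosen sites, had 1.56 to 1.77 and 1.86 to 2.06. All protein-coding genes that were not nearest to a site within H3K27ac had 0.59 to 0.66 and 0.80 to 0.90. The ranges of the 4 samples did not overlap between these gene groups at either stage.

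Between E11.5 and E17.5, 1160 of 2910 tested nearest genes rose (39.9%) and 663 fell (22.8%) by edgeR's quasi-likelihood test at an adjusted p under 0.05. Among all 14340 tested protein-coding genes, 32.2% rose and 25.7% fell, and the median log2 fold change was 0.29 for the nearest genes and 0.06 for all. Genes whose sites all lacked E11.5 H3K27ac (n = 1293) rose in 45.2% and fell in 20.8% of cases, with a median of 0.51. Genes whose sites all had it in both E11.5 lists (n = 816) rose in 32.6% and fell in 27.7%, with a median of 0.0017, close to all genes. Genes with 3 or more sites (n = 405) rose in 41.5% and fell in 22.7%. A further group (n = 6318) was nearest to a distal CTCF site without H3K27ac and to none of the chosen sites. Its genes rose in 33.6% and fell in 26.4%, and those also nearest to sites acetylated in some lists were kept. H3K27ac at E17.5 chose the sites, and no test of the difference between these groups was made. When genes within 100 kb of a site replaced the nearest genes, the ratio of risers to fallers was lower than among all tested protein-coding genes.

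Without E17.5 replicate 1, more genes passed the test in each group. All protein-coding genes then rose in 38.3% and fell in 37.3% of cases, nearest genes in 44.8% and 33.5%, genes of sites without E11.5 H3K27ac in 50.6% and 29.3%, and genes of sites with it in 37.7% and 40.2%. The median log2 fold changes were 0.00067, 0.19, 0.43 and -0.08, in the same order of groups as with all samples, while the share that rose among genes of sites with E11.5 H3K27ac was above that of all genes with replicate 1 and below it without.

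**Figure D4:**
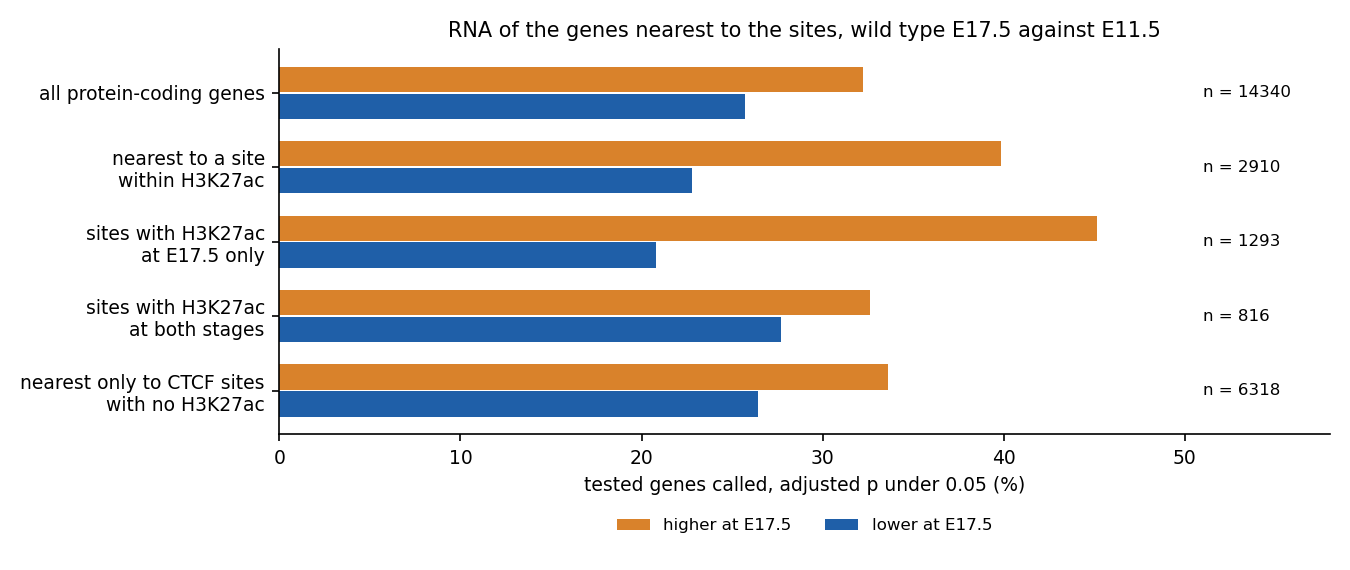
Percent of tested genes called higher (orange) or lower (blue) at E17.5 than at E11.5 in wild type RNA by edgeR's quasi-likelihood test (adjusted p under 0.05), for all protein-coding genes and for genes grouped by their nearest sites, with the number tested at the right. Genes nearest to sites acetylated at E17.5 alone have 45.2% higher, against 32.2% of all genes. The bottom group is nearest to a distal CTCF site without H3K27ac and to no site within H3K27ac. It keeps genes also nearest to sites acetylated in some lists.

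Among the nearest genes with the largest rise, Hepacam, a glial adhesion protein, rose by a log2 fold change of 8.08 (SE 0.36), from 0.153, 0.210, 0.104 and 0.0818 CPM (counts scaled to the size of the library) to 54.2, 31.5, 31 and 35.2. Its site (chr9:37295372-37296385, 16.8 kb away) had H3K4me3 in all 3 lists.

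Other large rises were those of Slc6a11, a GABA transporter of astrocytes, and Cbln4, a secreted synapse organizer. Slc6a11 rose by 6.77 (SE 0.37), from 1.79, 1.10, 1.82 and 1.84 CPM to 296, 143, 131 and 147, with replicate 1 the highest at E17.5. Its 3 sites, all in its introns, had mean CTCF of 5.81, 4.87 and 9.29, H3K27ac of 5.25 to 10.2 and no H3K4me3. Cbln4 rose by 6.75 (SE 0.38), from 0.817, 0.210, 1.04 and 0.491 CPM to 66.6, 68.9, 62.7 and 79.0, and both its sites, 89.1 and 100.9 kb away, lacked H3K27ac at E11.5. The stages did not overlap for either gene. Thy1, a neuronal surface glycoprotein, rose by 7.89, Gda, guanine deaminase, by 7.43, Bcan, a matrix proteoglycan, by 6.82, and Dpp10, a subunit of potassium channels, by 6.65. The Thy1 site (122 kb away, mean CTCF 49.2) lacked E11.5 H3K27ac, and the Bcan site (chr3:87893645-87895932, mean CTCF 61.7) had it in both lists.

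Among the largest falls were transcription factors of the early neural tube. Olig3, which marks early thalamic progenitors, fell by 6.31 on the log2 scale (SE 0.27), from 90.8, 85.8, 60.5 and 55.1 CPM to 0.939, 0.707, 0.932 and 1.06. Dbx1, a homeodomain factor of progenitors, fell by 5.31 (SE 0.32), from 157, 182, 115 and 124 CPM to 4.96, 1.96, 4.07 and 3.58. All E17.5 values were far below all E11.5 values for both genes, although their sites were chosen for H3K27ac at E17.5. The Olig3 site (chr10:19063703-19064283, 168 kb away, an exon of a non-coding RNA) had a mean H3K27ac of 5.20 and none at E11.5. The Dbx1 sites, 152 and 210 kb away in protein-coding introns, had mean H3K27ac of 7.12 and 3.57.

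Progenitor genes fell as well. Neurog2, a proneural factor, fell by 4.10 (SE 0.24), from 279, 250.2, 184 and 203 CPM to 18.1, 11.47, 13.1 and 10.7. Nes, the intermediate filament of neural stem cells, fell by 4.10 (SE 0.34), from 1572, 1435, 1848 and 1645 CPM to 150, 114, 63.8 and 52.4. Their sites, 6.80 and 9.35 kb away, were acetylated at both stages and carried H3K4me3 in all 3 lists. The homeobox gene Msx2 fell by 6.02, the mitotic kinase gene Aurkb by 4.39 and Pdlim1, a LIM domain gene, by 4.15. Hemgn, a gene of red cell precursors, fell by 7.82, from 16.8, 26.5, 19.5 and 20.5 CPM to 0.209, 0.0544, 0.0490 and 0.0426. The sum of the 4 blood markers was 70.7 to 159 RPKM at E11.5 and 152 to 660 at E17.5, but its members differed. The median over samples of the adult globin gene Hbb-bs was 6.02 and 162 RPKM, of Hbb-bt 17.7 and 22.5, of Hba-a1 82.7 and 43.3, and of Alas2, the heme synthesis enzyme of red cell precursors, 10.6 and 4.51.

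**Figure D5:**
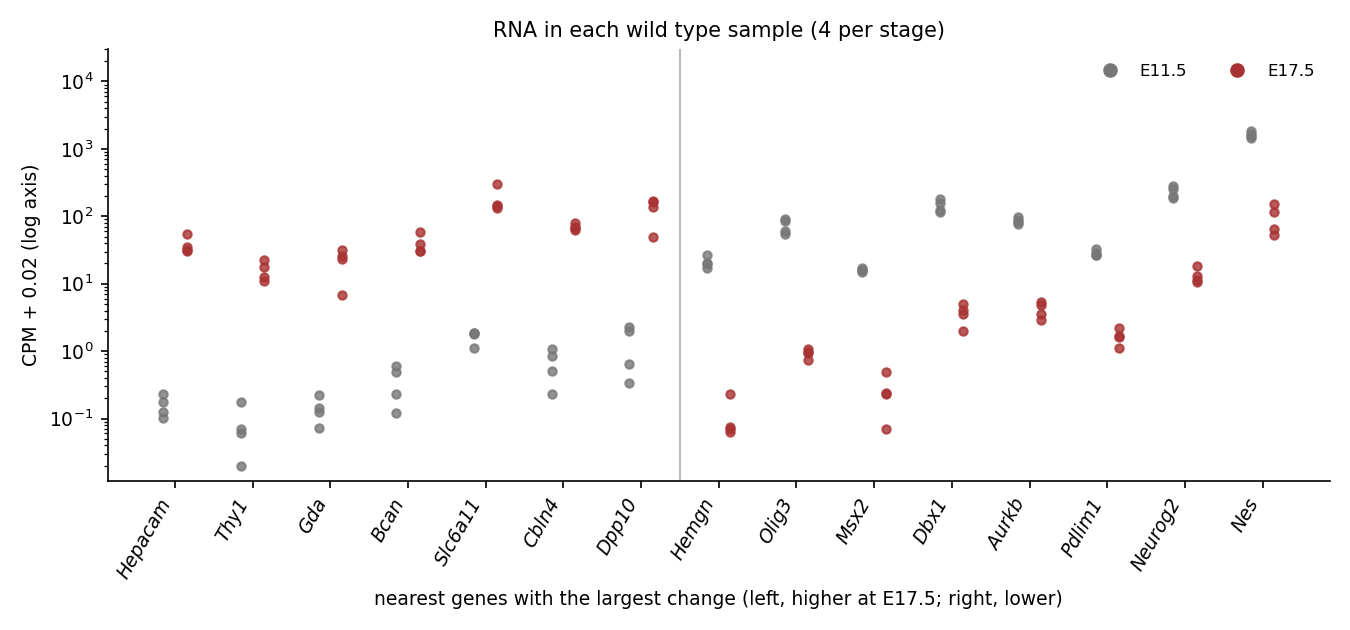
CPM plus 0.02 (log axis) in each of 4 wild type samples at E11.5 (grey) and E17.5 (red) for 7 nearest genes with the largest rise (left) and the 8 with the largest fall (right). The stages do not overlap for any of these genes, from Hepacam, with 0.0818 to 0.210 against 31 to 54.2, to Nes, with 1435 to 1848 against 52.4 to 150.

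The genes with the most sites outside chromosome 18 moved in different directions. Gins2, a subunit of the replication helicase, had 12 sites within 172 kb, of which 10 were acetylated in both E11.5 lists, and all 12 lay in introns of protein-coding genes. It fell by 3.13 (SE 0.36, adjusted p = 3.62e-05 by edgeR's quasi-likelihood test), from 19.9, 30.6, 18.5 and 23.4 CPM to 4.85, 2.07, 2.01 and 1.62. Its sites ranged from a mean CTCF of 4.22, at a CpG island with H3K27ac of 45.7 and H3K4me3 of 67.0 (chr8:121215807-121216287), to 47.7, at a site with H3K27ac of 2.98 (chr8:121261467-121262328). The highest CTCF and the highest acetylation of this cluster lay on different sites.

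Ntm, which encodes the neural adhesion protein neurotrimin, had 10 sites, 9 of them in its introns and 7 without H3K27ac at E11.5. It rose by 3.96 (SE 0.25, adjusted p = 9.44e-07 by edgeR's quasi-likelihood test), from 33.4, 16.9, 31.2 and 22 CPM to 427, 445, 357 and 382. At the strongest acetylated one (chr9:29320171-29321281, 553 kb from the gene start) the mean CTCF was 53.2, H3K27ac 30.9 and H3K4me3 46.7, and a neighbour (chr9:29322420-29323386) in the same acetylated peak had a mean CTCF of 21.4 and a transcript start within 1 kb. Ubash3b, a phosphatase of tyrosine kinase signalling, with 10 sites, rose by 2.05 (SE 0.15), from 19.6, 19.9, 21.2 and 20.7 CPM to 86.0, 85.7, 75.6 and 88.4. Tpra1 and Pmfbp1, with 10 sites each, had log2 fold changes of 0.03 (adjusted p = 0.919) and -0.44 (adjusted p = 0.175), and their samples overlapped between the stages.

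Gene lists of the diencephalon were read by their members nearest to a site. Of the thalamus list, 9 members were nearest to a site and tested, and 5 rose and 2 fell, against 9 and 3 of the 14 tested in the whole list (median log2 fold changes 1.02 and 2.16, against 0.06 for all genes). Risers included Ntng1, a synaptic adhesion gene (4.48), Prox1 (2.77) and Foxp2 (2.75), both transcription factors, and Olig3 was among those that fell. Tcf7l2, the Wnt effector that marks the postmitotic thalamus, had 1324, 899, 1086 and 884 CPM at the early stage and 1357, 1258, 1166 and 1029 at the late stage (log2 fold change 0.20, SE 0.18, adjusted p = 0.385 by edgeR's quasi-likelihood test), and the stages overlapped. Its 8 sites lay in the gene between 110 and 171 kb from its start, and 6 of them shared a single H3K27ac peak of 49.3 ± 13-fold (SD, n = 3). CTCF at the 8 sites ranged from 4.12 to 31.9, and the highest (chr19:55866016-55866822) was outside the shared peak, with H3K27ac of 6.75. Gbx2, a thalamic homeobox gene with 4 sites, had a log2 fold change of 0.68 (adjusted p = 0.204).

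The habenula list had 3 tested members, of which 2 rose and none fell (7 and 2 of 10 in the whole list), among them Pcdh10, a protocadherin (3.44), while Nr4a2 had a log2 fold change of -0.04 that changed sign with the scaling. Of 10 prethalamic and GABAergic genes, 7 rose and 2 fell (11 and 3 of 16 in the whole list), with a median of 1.36. Gad1, the enzyme of GABA synthesis, rose by 3.39 and Isl1 by 3.62, while Lhx5 fell by 1.74 and Pax6 by 2.08, and Dlx2 had 0.25 (adjusted p = 0.584). Of 6 hypothalamic genes, 2 rose (15 of 21 in the whole list), with a median of 0.55 against 2.81 for the whole list, and Pou3f2, a POU factor with 4 sites acetylated at both stages, fell by 2.24. Nkx2-1 had a log2 fold change of 0.42 (adjusted p = 0.355).

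Genes of early patterning and of radial glia fell throughout. All 6 tested patterning genes nearest to a site fell (23 of 24 in the whole list), with a median of -2.17, among them Barhl2 by 2.96 and Irx5 by 2.48. All 9 radial glia and progenitor genes fell (19 of 20 in the whole list), with a median of -2.69, including Hes1, a Notch effector, by 1.39 and Vim by 2.54. Sox2, the progenitor factor, fell by 0.65 (SE 0.17, adjusted p = 0.00885 by edgeR's quasi-likelihood test), from 237, 250.2, 238 and 238 CPM to 199, 136, 134 and 145. Sox2 had 8 sites, and 3 of them shared an H3K27ac peak of 50.0 ± 1.4-fold (SD, n = 3) with mean CTCF of 42.2, 39.6 and 8.65 (chr3:34693171-34693995, chr3:34694808-34695479 and chr3:34720338-34720682), acetylated in both E11.5 lists.

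Irx1, a homeobox gene of the patterning list, fell by 1.86 (SE 0.32), from 49.4, 46.8, 39.3 and 39.9 CPM to 21.7, 7.12, 10.1 and 9.49. It was the nearest gene of 4 sites, with the highest CTCF, 56.8 ± 10 (SD, n = 3), 505 kb away at chr13:71606339-71607274. A pair of weak sites in intergenic sequence, chr13:72437056-72437670 (CTCF 8.71 ± 3.3, H3K27ac 6.24 ± 1.9) and chr13:72440616-72440986 (CTCF 4.93 ± 1.2, H3K27ac 6.68 ± 2.1), lay 325 and 329 kb away, inside the mouse interval that the humanized line replaces, and their humanized values were not compared.

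Glial and neuronal lists moved mostly upward. Of 9 astrocyte genes, 7 rose and 1 fell (11 and 3 of 16 in the whole list), with medians of 2.41 and 2.34. Aldh1l1, a folate enzyme of astrocytes, rose by 3.02 and Nfia by 1.65, with 3 sites each, and Sox9 fell by 1.40. All 16 synapse and neuron maturation genes nearest to a site rose (31 of 32 in the whole list), with a median log2 fold change of 3.27 against 3.09 for the whole list. Rbfox1, a neuronal splicing factor whose 4 sites lay 906 to 1533 kb from its gene-record start, rose by 4.11, and Nrxn3, a presynaptic adhesion gene, by 3.12. Of 6 oligodendrocyte lineage genes, 3 rose and 2 fell (8 and 2 of 11 in the whole list, medians 0.20 and 0.93), among them Sox5 (0.93, adjusted p = 0.00452) and Sox6 (-0.79, adjusted p = 0.0201, both by edgeR's quasi-likelihood test).

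CTCF and cohesin genes were nearest to a site in 3 tested cases (4 rose and 2 fell of 11 in the whole list). Ctcf itself fell by 0.79 (adjusted p = 0.00203 by edgeR's quasi-likelihood test), while Pds5a, a cohesin regulator, had -0.24 (adjusted p = 0.602) and Stag1, a cohesin subunit, 0.53 (adjusted p = 0.232). Without E17.5 replicate 1 the value of Stag1 was 0.78 and passed the test. Of 9 imprinted genes, 3 rose and 3 fell (9 and 5 of 20 in the whole list, medians -0.18 and 0.39). Ndn, expressed from the paternal allele, rose by 1.97, and Dlk1 had -0.73 (adjusted p = 0.0723 by edgeR's quasi-likelihood test). Without E17.5 replicate 1 the counts of genes that rose and fell were 3 and 2 in the hypothalamic list, 0 and 7 of 7 in the patterning list, 8 and 1 in the astrocyte list, 3 and 3 in the oligodendrocyte list, 1 and 1 in the cohesin list and 3 and 4 in the imprinted list, and as above in the other 5.

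Between the genotypes at E17.5, edgeR's quasi-likelihood test called 0 of the 2912 tested nearest genes and 0% of all 14358 tested protein-coding genes. Genes on chromosome 13 were kept in this comparison. An unadjusted p under 0.05 was found for 27 of the 2912 and 146 of all 14358, and DESeq2 called 0 with 35 unadjusted. Both edgeR shares are below the 0.05 that a test gives when no gene differs, so 0 calls do not show that the genotypes are alike. Wild type replicate 1 was among the samples, with a mean correlation of 0.927 to its group against 0.962 to 0.969 for the other wild type samples. The lowest unadjusted p values were those of Ntsr2, a neurotensin receptor of astrocytes (log2 fold change -0.93 in humanized against wild type, SE 0.33, adjusted p = 0.808), Cck (-0.74) and Creb3l1 (-0.73).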

How the data were processed

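Per the labels and methods, the authors aligned ChIP-seq reads with Bowtie2 2.4.2 to mm39 and called peaks for each replicate with MACS2 2.2.7.1, and the deposited lists give a fold enrichment (a ratio over local background), the −log10 of p and q, and a whole-number score. RNA reads were aligned with STAR 2.7.9a, and the deposited files hold the authors' raw read counts per gene. The unstranded counts were used, and reads on no gene (48.1% to 58.4%) were left out. The authors' annotation was GENCODE release 31. Release 39 was used here, and 56199 of 56923 gene IDs matched (98.7%).

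Of 76 samples, 36 peak lists and the wild type and E17.5 RNA samples were used, and 24 inputs were not analysed here. CTCF and H3K27ac peaks were merged at 1 bp overlap. Depth of the peak lists is unknown, so no intervals are given. RNA counts were filtered with filterByExpr, scaled by TMM and tested with edgeR 4.0.16's quasi-likelihood test on the 8 samples of each comparison. CTCF log2 fold enrichment between genotypes was tested with limma 3.58.1 (R 4.3.3), centred on each list's median, at regions with a peak in all 6 lists. Shares and means per list were compared by exact sign-flip permutation tests. p-values were adjusted by Benjamini-Hochberg over all features tested. Scripts were tested on simulated data. DESeq2 1.42.0, other scalings, filters, overlaps and leaving out replicates were alternatives.

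Named genes, outside chromosome 18, were the 8 with the largest rise and fall among called nearest genes with a mean count of at least 100, the 5 with the most sites, and the 2 with the most sites per list. Named sites were those with the highest mean CTCF, H3K27ac, H3K4me3 or E11.5 H3K27ac. Other list members, and the genotype examples, were chosen after their values were seen. No site or gene on chromosome 18 is named, although some had as many sites, and 1 gene that met the rule is not reported here. The rule, the gene lists and the tests were chosen with earlier results of these data known. Each replicate pooled the embryos of a single litter.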

Additional observations from a re-analysis of the deposited data

Results flagged for a closer look

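Among the 42 named genes, 11 values stood apart from the other 3 samples of their group by Dixon's criterion for 4 samples, the gap to the nearest sample over the range, where chance marks about 1 in 20 groups. Of these, 9 were values of the E17.5 wild type replicate 1, the sample that stood apart in the RNA data as a whole. In that sample Slc6a11 had 296 CPM against 131 to 147, Gbx2 52.1 against 25.9 to 27, Lhx5 28.2 against 12 to 14.2, Barhl2 14.9 against 12.4 to 12.6, Sox2 199 against 134 to 145, Gins2 4.85 against 1.62 to 2.07, Hemgn 0.209 against 0.0426 to 0.0544 and Ndn 705 against 334 to 385. Stag1 was the exception in direction, at 48.2 CPM against 129 to 137. At E11.5, replicate 2 had 1.10 CPM of Slc6a11 against 1.79 to 1.84 and 250.2 of Sox2 against 237 to 238.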

How the results depend on the processing

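Under other processing, 618 recomputed values kept their direction and call, 13 moved, 8 turned, 6 gained the call and 7 lost it. This last was the CTCF difference between sites within and without H3K27ac, at -0.34 among sites of 400 to 800 bp. It was 0.33 to 0.36 when a list was left out. The width, transcript start, H3K4me3 and letter alternatives were chosen after seeing the data. The number of sites was 3444 with starts of genes of every biotype. Sites with H3K27ac in both E11.5 lists were 34.2% at −log10 q of at least 5, 34.5% at 50% overlap, 39.5% to 42.7% in a single list and 25.8% without a transcript start within 1 kb. H3K4me3 in all 3 lists was at 46.9% and 46.2% of sites under the first pair of settings, 44.2% to 45.0% when a list was left out and 25.9% without a start. The H3K4me3 difference between regions was 35.1 to 35.4 points without a list. There 5 lists allow no p under 0.0625, so these runs are among the lost calls whatever their values. The core letters were at 22.6% of sites in the stricter form and 29.8% within 50 bp of the summit. CpG islands were at 19.6% with windows of 300 bp and at least 55% GC. An alternative leaving out soft-masked letters was not run, because the genome used here has none.

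Called genes within 100 kb of a site numbered 1826 higher and 1612 lower. Their ratio was lower than that of the nearest genes (1160 and 663) and of all 14340 tested protein-coding genes (4620 and 3688). For sites without a transcript start, 782 and 421 of 1902 tested nearest genes were called, or 41.1% and 22.1%. Without 1 sample, 1058 to 1317 nearest genes were higher and 544 to 983 lower, the highest of both without E17.5 replicate 1. With the replicate number as a block they were 1088 and 618, the genotype comparison gave 0 genes and 0 CTCF sites, and Gbx2 passed with 0.84. Same-numbered samples correlated at 0.006, -0.50, 0.35 and 0.055 between stages and at 0.51, 0.56, 0.043 and 0.19 between genotypes, so the numbers were not taken as pairs. Of the 32 called named genes, 31 kept their call in every fit, and Sox6 (-0.75, without E17.5 replicate 3) did not. Without E17.5 replicate 1, Dlx2 was at -0.17, Nr4a2 at 0.13, Pds5a at 0.026 and Tpra1 at -0.11. Over all samples left out in turn these values ranged from -0.17 to 0.57, -0.13 to 0.13, -0.39 to 0.026 and -0.11 to 0.20, and none passed the test. Nr4a2 was at 0.018 with DESeq2's size factors. Dlk1 passed with no filter (-0.74), and Gbx2 without E11.5 replicate 1 (1.26). The causes were not tested.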
